A study of Mus musculus with 14 samples.

Results

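Glycosaminoglycans are the long sulfated sugar chains of the cartilage matrix and the cell surface, and 48 genes for the enzymes and transporters that build and sulfate them were followed in 14 RNA-seq libraries of sorted mouse forelimb bud cells. The genes were taken by name from a list of the pathway and found in the deposited count table through their Entrez identifiers, 48 of the 24454 genes in the table. All 48 were present, and 47 passed the filter on low counts. The excluded gene was Chst13, a chondroitin 4-O-sulfotransferase, which had at most 1 read in any library. The members fall into 8 roles: 6 make the linker, 6 extend chondroitin chains, 10 modify chondroitin and dermatan sulfate, 5 extend heparan sulfate chains, 11 modify heparan sulfate, 2 edit it outside the cell, 5 supply activated sulfate and sugars, and 3 make hyaluronan. The chain and modification groups of chondroitin form the chondroitin branch (16 genes), and those of heparan sulfate form the heparan branch (16 genes).

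The study sorted cells of forelimb buds pooled from Sox9 IRES-EGFP reporter embryos of a mixed Swiss Albino background, in which EGFP marks cells that transcribe Sox9, the master regulator of chondrogenesis. All 5 populations were gated on viable cells (7AAD-) lacking CD31, Ter119, CD45, EpCam, Gr1 and CD11b, and no embryo received a treatment. At E10.5 the study took Sox9-negative JAG1+ SCA-1- cells (S9-JAG1+) and Sox9-negative JAG1- SCA-1- PDGFRα-high cells (S9-Pαhi), both described as limb bud mesenchymal progenitors, with 3 libraries each. Sox9+ PDGFRα-high cells of E10.5, the osteo-chondrogenic progenitors (S9+Pαhi OCPs), gave 3 libraries, and Sox9-negative JAG1- SCA-1+ cells of E10.5 (S9-SCA-1+) gave 2. The chondroblasts, labelled S9+COL2+, came from E11.5 with 3 libraries. Their listed gate is the one of the OCPs with no sort for type II collagen, so population and embryonic day cannot be told apart in any comparison with chondroblasts. Each library is a pool of many limb buds, and in bulk samples fewer cells of a type and less RNA per cell cannot be told apart.

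A sulfated glycosaminoglycan starts as a short linker that xylosyltransferase places on a serine of a core protein. The first sugar added to the finished linker decides its fate: N-acetylgalactosamine starts a chondroitin chain and N-acetylglucosamine a heparan chain. Sulfotransferases then decorate the chains with sulfate from PAPS, the activated sulfate donor, and chondroitin sulfate on aggrecan gives cartilage its swelling pressure, while heparan sulfate binds FGF, BMP, Wnt and hedgehog ligands. Hyaluronan is neither sulfated nor tied to a core protein, and is abundant in limb bud mesenchyme before cartilage condenses.

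The libraries held 20316583 to 29162751 counted reads, and levels are given as CPM, which are counts scaled to a common library size. A count of 3, used as the floor, corresponded to 0.101 to 0.149 CPM. Of the gating genes, Sox9 and Jag1 followed the labels in the populations given here, and levels of Pdgfra and Col2a1 are not given. Sox9 was at 434, 432 and 445 CPM in the OCPs and at 32.0, 36.8 and 35.6 CPM in the S9-JAG1+ cells. Jag1 was at 228, 297 and 364 CPM in S9-JAG1+ cells against 10.53, 13.2 and 11.7 CPM in S9-Pαhi cells. The 7 chondrogenic markers (Sox5, Sox6, Acan, Matn1, Matn4, Col9a1 and Col11a1) summed to 781 to 1140.1 CPM in chondroblasts and 413 to 518 in OCPs. They summed to 191 to 210 in S9-JAG1+, 158 to 189 in S9-Pαhi and 105 to 113 in S9-SCA-1+ cells. The 5 myogenic markers (Pax3, Lbx1, Myf5, Myod1 and Met) summed to 1489.6 to 1494 CPM in S9-SCA-1+ cells and to at most 10.4 CPM elsewhere, while Ly6a, which encodes SCA-1, reached only 3.36 and 3.10 CPM there. One S9-SCA-1+ library, replicate 3, stood apart with 795 CPM over 6 blood genes against 26.1 in replicate 2. Endothelial genes (5) summed to 11.2 to 15.4 CPM in S9-SCA-1+ cells and to at most 10.4 CPM elsewhere. Ectodermal genes (6) summed to 8.31 to 10.8 CPM in chondroblasts and 4.06 to 4.41 in OCPs, and neural crest and glial genes (4) to 29.3 to 40.04 and 20.7 to 28.4 CPM. Their part in the results was not tested.

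Most of the pathway was transcribed in every population: 39 of the 48 members had a mean of at least 1 CPM in all 5. Per kilobase of transcript, the extracellular sulfatase Sulf2 had the highest level of all members in each population, from 149.5 CPM per kb in chondroblasts to 271 in S9-SCA-1+ cells. In the chondroitin branch Chsy1, the chondroitin synthase, led with 38.4 to 46.1 CPM per kb. In the heparan branch Ndst1, which starts heparan sulfation, stood at 30.6 to 37.4 CPM per kb. In a joint test of any difference among the 5 populations, 40 of the 47 tested members passed an adjusted p of 0.1, compared with 74.8% of all 15125 genes tested (edgeR quasi-likelihood F test, p-values adjusted by Benjamini-Hochberg over all genes tested, as for every adjusted p given here). The members that did not pass were B4galt7, B3galt6, B3gat3, Ndst1, Hs2st1, Slc35d1 and Has1, with adjusted p from 0.109 to 0.387. Of these 7, 3 make the linker, and Has1 had between 4 and 55 reads a library, with large spread between replicates.

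**Figure D1:**
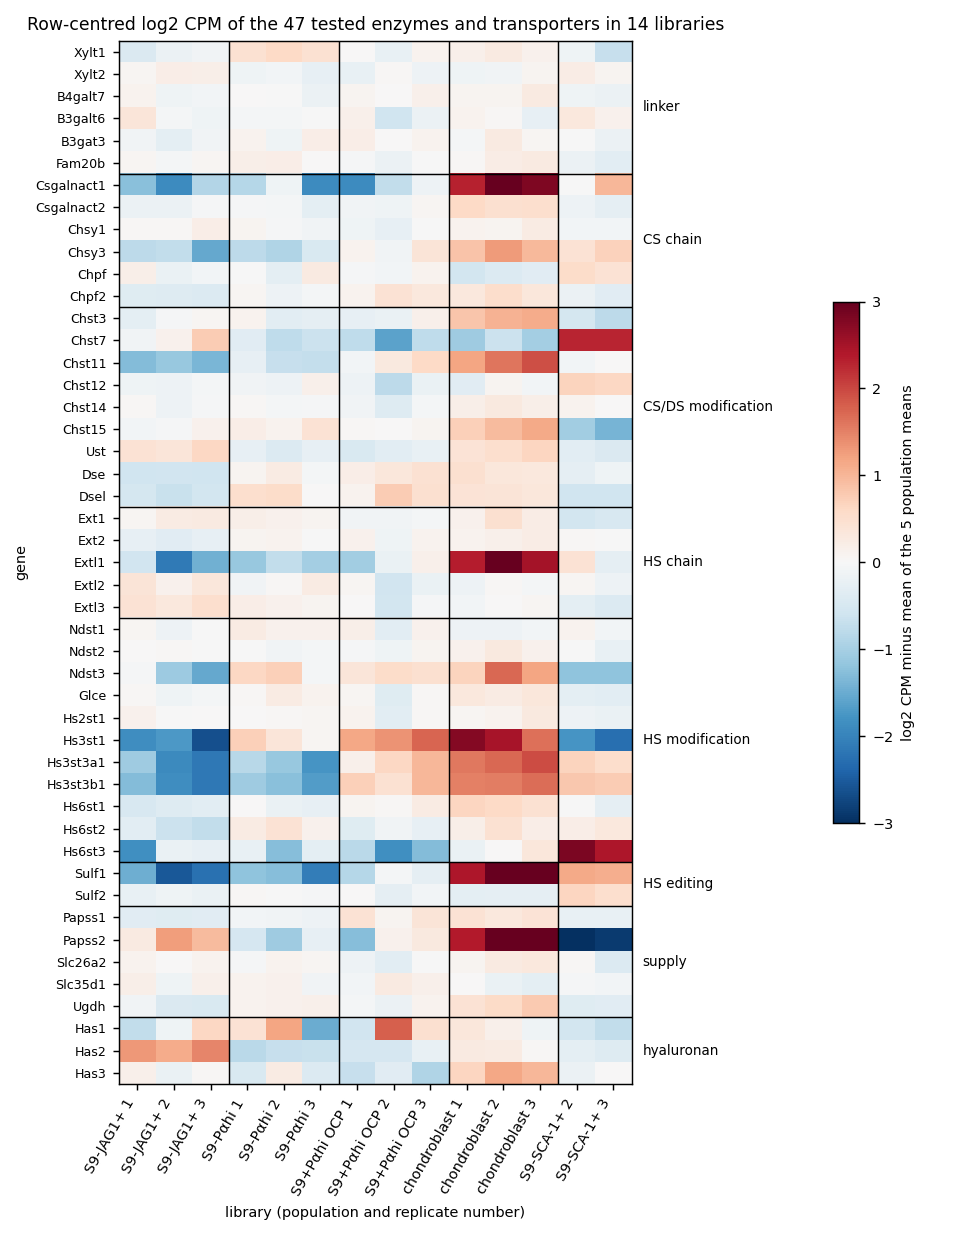
Heat map of row-centred log2 CPM for the 47 tested members (rows, grouped by role) in the 14 libraries (columns). The linker rows are nearly white throughout, while Csgalnact1, Extl1, Hs3st1, Sulf1 and Papss2 are red in all 3 chondroblast libraries, and Chst7 and Hs6st3 are red in both S9-SCA-1+ libraries.

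Chondroblasts carried more transcripts of these genes than OCPs. Of the 47 members tested, 26 were higher (18.3% of all genes) and 1, Chpf, was lower (16.5% of all genes) at an adjusted p of 0.1. With a log2 difference of at least 1.2 also required, which here makes a gene called, 7 members were higher (6.6% of all genes) and none was lower (1.16% of all genes). The called members were Csgalnact1, Chst11, Extl1, Hs6st3, Sulf1, Papss2 and Has3. The median log2 difference was 0.38 over the members and -0.02 over all genes tested.

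Between OCPs and S9-Pαhi cells, which share the embryonic day and the PDGFRα gate and differ in Sox9 and in the JAG1 and SCA-1 gates, which are listed for the S9-Pαhi cells alone, 11 members were higher in OCPs (11.8% of all genes) and 2, Xylt1 and Hs6st2, were lower (8.35% of all genes). The called members were the 3-O-sulfotransferases Hs3st3a1 and Hs3st3b1, both higher (3.48% of all genes), and none was lower (1.36% of all genes). Without S9-Pαhi replicate 3, 7 members passed in place of 13, and 10.3% of all genes in place of 20.1%. Between the Sox9-negative progenitors, 12 members were higher in S9-Pαhi than in S9-JAG1+ cells (15.2% of all genes) and 5 were lower (12.8% of all genes). Of these, Hs3st1 and Ndst3 were called higher (4.42% of all genes) and Papss2 and Has2 called lower (2.58% of all genes). The OCP and S9-Pαhi libraries each enter a pair of these comparisons, so the comparisons are not independent of each other.

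S9-SCA-1+ cells were set against the average of all 4 remaining populations, and there 11 members were higher (23.5% of all genes) and 19 lower (22.8% of all genes). Chst7, Hs6st3 and Sulf1 were called higher (4.46% of all genes), and Chst15, Hs3st1, Ndst3 and Papss2 called lower (6.8% of all genes). Replicate 3 held blood transcripts, and a fit without either replicate rests on a lone S9-SCA-1+ library. For the fits of this comparison with a library left out, effect sizes alone are therefore given. Adjusted p given for S9-SCA-1+ cells further below come from the fit with both of their libraries, blood transcripts included. When each of the 14 libraries was left out in turn, the log2 difference was 2.84 to 2.98 for Chst7, 3.73 to 4.17 for Hs6st3 and 1.30 to 1.45 for Sulf1. It was -1.71 to -1.36 for Chst15, -3.16 to -2.53 for Hs3st1, -2.33 to -1.99 for Ndst3 and -4.35 to -3.97 for Papss2.

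**Figure D2:**
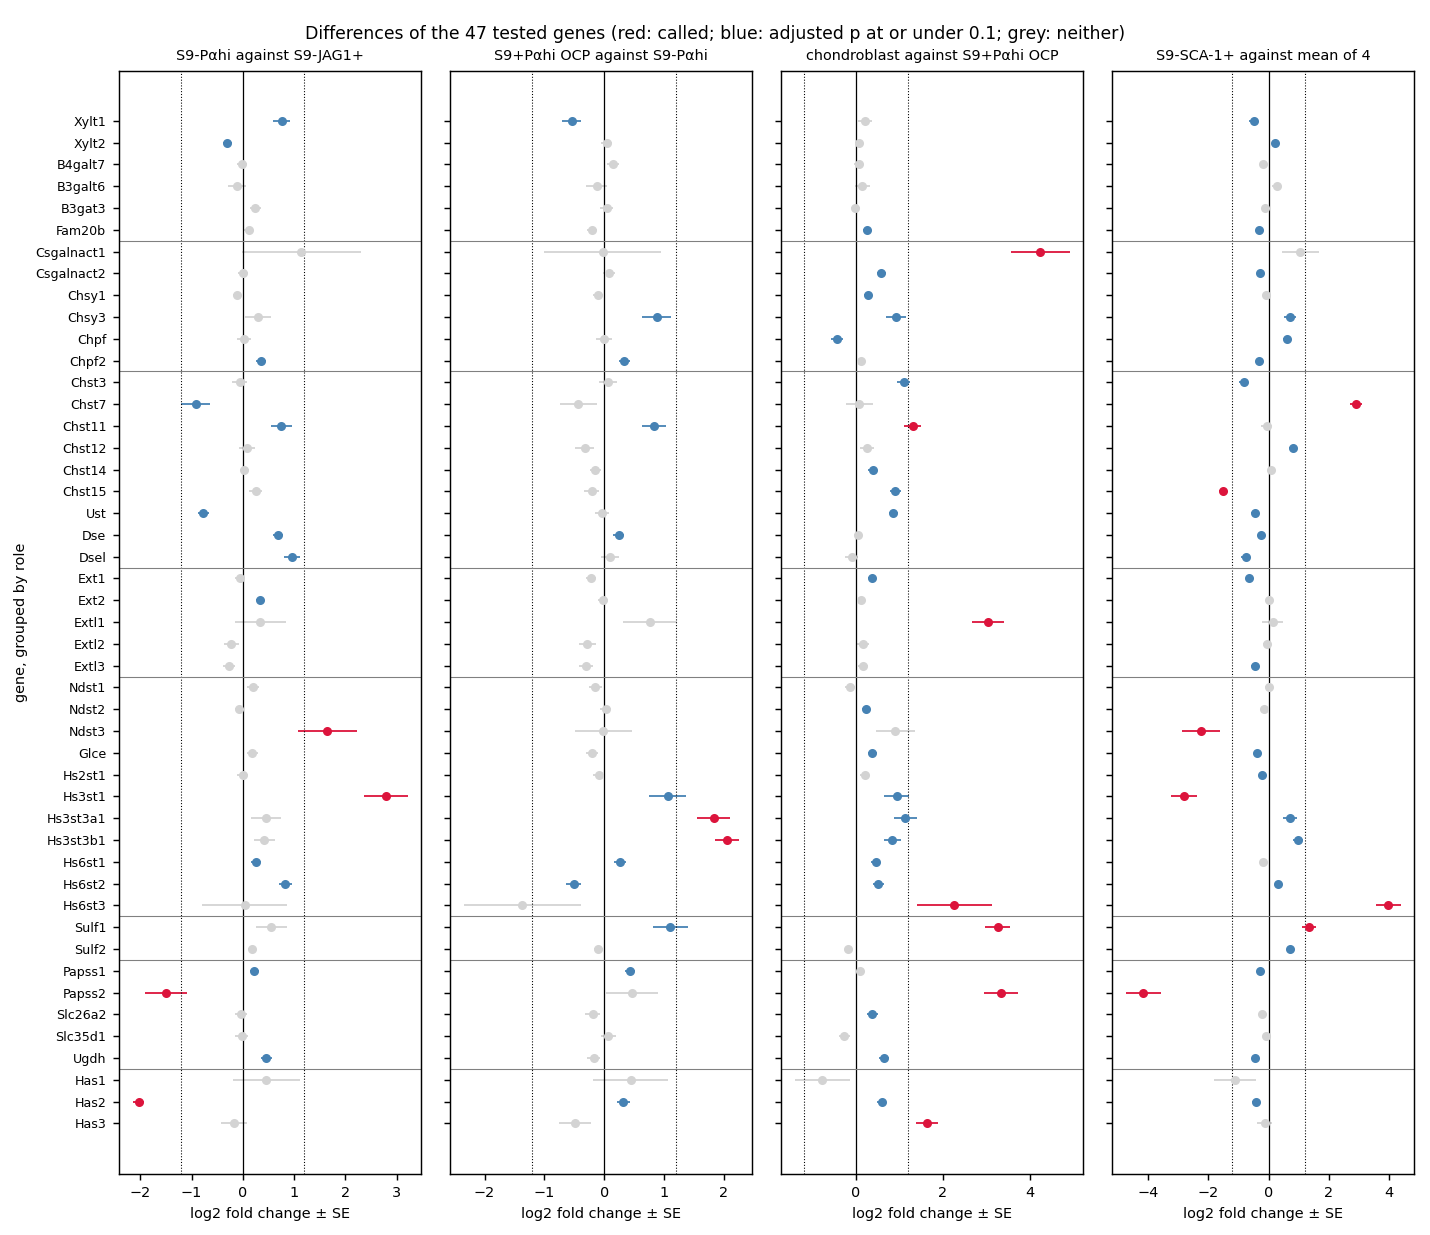
Log2 fold change with its standard error for each tested member in the 4 comparisons, with the call limits of 1.2 as dotted lines. In the chondroblast panel nearly all coloured points lie right of 0, with Chpf the exception, and the called members are spread over both branches.

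Both branches were highest in chondroblasts, and the ratio between them varied as much within OCPs as over all libraries. Summed over its genes, the chondroitin branch amounted to 121, 116 and 125 CPM per kb in the S9-JAG1+ libraries, 136, 129.5 and 129 in the S9-Pαhi, 128, 129 and 145 in the OCP, 156, 163 and 168 in the chondroblast and 134 and 132 in the S9-SCA-1+ libraries. The heparan branch amounted to 200.2, 187 and 198, then 214, 209 and 199.8, 218, 184 and 228, 255, 274 and 272, and 203 and 192 CPM per kb in the same order. Both sums were highest in the 3 chondroblast libraries, which did not overlap any other population. The ratio of the heparan to the chondroitin sum ran from 1.43 to 1.70 over the 14 libraries, and the OCP libraries alone held both the lowest and the highest value.

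An index that gives each gene equal weight, the mean of its row-centred log2 CPM over a branch, showed the same common direction. From S9-JAG1+ cells to chondroblasts the chondroitin index went from -0.32 ± 0.06 to 0.56 ± 0.11 and the heparan index from -0.56 ± 0.13 to 0.70 ± 0.09 (SD, n = 3 each). The chondroitin minus heparan difference was 0.24 ± 0.16 in S9-JAG1+, -0.03 ± 0.03 in S9-Pαhi, -0.16 ± 0.10 in OCPs and -0.15 ± 0.05 in chondroblasts (SD, n = 3), and 0.09 ± 0.13 in S9-SCA-1+ cells (SD, n = 2). The 3 S9-JAG1+ libraries were above the S9-Pαhi, OCP and chondroblast libraries, and overlapped the S9-SCA-1+ libraries. OCPs and chondroblasts overlapped. The sign of this difference depended on how the branch was summarised: it was 0.07 in S9-JAG1+ and 0.13 in chondroblasts with the median over members, and -0.32 and 0.13 with chain-building enzymes alone, and in each population it turned under at least 1 way of summarising.

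The counts of members per branch follow, with no test of the difference between the branches. In chondroblasts against OCPs, 9 of 15 tested chondroitin genes and 10 of 16 heparan genes were higher (18.3% of all genes). Of the chondroitin genes 1 was lower (16.5% of all genes). Of each branch 2 were called, all higher (6.6% of all genes), and the median log2 difference over the tested genes was 0.38 and 0.42. In OCPs against S9-Pαhi cells 4 of each branch were higher (11.8% of all genes), and no chondroitin and 1 heparan gene was lower (8.35%). Both called members were heparan genes and were higher (3.48% of all genes). In S9-Pαhi against S9-JAG1+ cells 4 chondroitin and 5 heparan genes were higher (15.2% of all genes). Lower were 2 chondroitin genes and no heparan gene (12.8%). Called higher were 2 heparan genes and no chondroitin gene (4.42% of all genes), and 1 of these, Ndst3, lost its call in some fits with a library left out. In S9-SCA-1+ cells 4 chondroitin genes were higher and 7 lower, beside 4 and 6 heparan genes (23.5% and 22.8% of all genes). There 1 gene of each branch was called higher (4.46% of all genes), and 1 chondroitin and 2 heparan genes were called lower (6.8%).

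**Figure D3:**
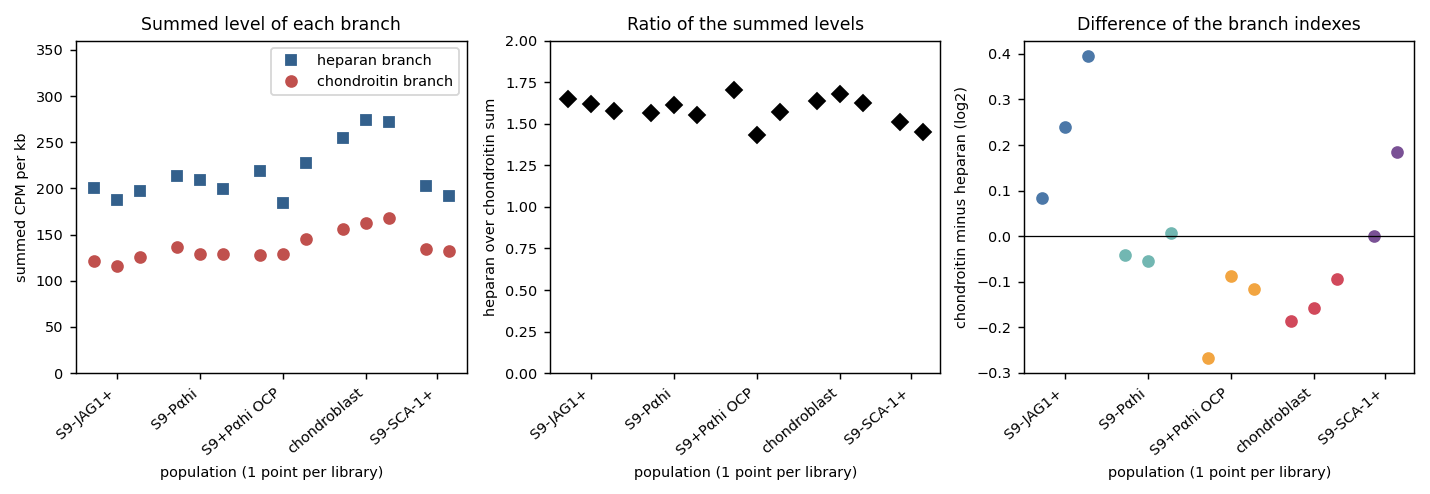
Left, summed CPM per kb of each branch per library; middle, the heparan sum over the chondroitin sum; right, the chondroitin minus heparan index on the log2 scale, 1 point per library. Both sums are highest in chondroblasts while their ratio stays between 1.43 and 1.70 throughout.

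The linker enzymes differed little between populations. Xylt1 and Xylt2 are the xylosyltransferases that start the linker, B4galt7 and B3galt6 add its galactoses, B3gat3 adds glucuronic acid, and Fam20b is the xylose kinase. No linker gene was called in any comparison. Xylt1 had 4.88, 5.87 and 6.14 CPM in the S9-JAG1+ libraries, 9.19, 10.1 and 9.22 in the S9-Pαhi libraries, 6.65, 5.66 and 7.20 in the OCP libraries, 7.37, 8.01 and 7.23 in the chondroblast libraries and 6.09 and 4.06 in the S9-SCA-1+ libraries. It was highest in all 3 S9-Pαhi libraries, with log2 differences of 0.76 ± 0.16 against S9-JAG1+ cells (adjusted p = 0.00357) and -0.55 ± 0.16 in OCPs against S9-Pαhi cells (adjusted p = 0.0371). Xylt2 was the more abundant xylosyltransferase per kilobase in all 14 libraries and spanned 33.5 to 46.8 CPM. Fam20b was higher in chondroblasts than in OCPs by 0.25 ± 0.08 on the log2 scale (adjusted p = 0.0446).

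Chondroitin chains are started by the N-acetylgalactosaminyltransferases Csgalnact1 and Csgalnact2 and extended by Chsy1 and Chsy3 with their partners Chpf and Chpf2. Csgalnact1, whose loss is known to lower the chondroitin sulfate of cartilage, had the largest chondroblast increase in this group, though from a low level. It had 1, 0 and 2 reads in the S9-JAG1+ libraries, 2, 5 and 0 in the S9-Pαhi, 0, 2 and 5 in the OCP, 40, 69 and 49 in the chondroblast and 6 and 14 in the S9-SCA-1+ libraries. The chondroblast libraries (1.35, 2.36 and 1.92 CPM) overlapped no other library, and the OCP libraries were at or near the floor. The ratio of CPM from summed reads, chondroblasts over OCPs, was 19.6 (95% interval 9.30 to 49.6), an interval that covers counting error only. The fitted log2 difference was 4.24 ± 0.68 (adjusted p = 5.03e-04). It ran from 3.67 to 5.24 when each library was left out in turn, and was 5.24 without OCP replicate 3. Csgalnact2 was far more abundant, at 12.4 to 23.0 CPM, and was also higher in chondroblasts, by 0.59 ± 0.10 on the log2 scale (adjusted p = 9.40e-04), with no overlap with any other library.

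Among the polymerising enzymes Chsy3 was higher in OCPs than in S9-Pαhi cells and higher again in chondroblasts. Its levels were 1.80, 1.84 and 1.03 CPM in the S9-JAG1+ libraries, 1.79, 1.65 and 2.29 in the S9-Pαhi libraries, 3.37, 2.90 and 4.16 in the OCP libraries, 5.78, 7.80 and 6.24 in the chondroblast libraries and 4.30 and 5.16 in the S9-SCA-1+ libraries. S9-JAG1+ and S9-Pαhi libraries overlapped and lay below all OCP libraries, which lay below S9-SCA-1+ cells and then chondroblasts. The log2 differences were 0.87 ± 0.24 for OCPs against S9-Pαhi cells (adjusted p = 0.0285) and 0.92 ± 0.22 for chondroblasts against OCPs (adjusted p = 0.00785). Chsy1 moved little, by 0.27 ± 0.08 in chondroblasts against OCPs (adjusted p = 0.0276). Chpf was the only member to pass the test as lower in chondroblasts, at 29.6, 32.6 and 34.0 CPM against 42.1, 41.1 and 46.4 CPM in OCPs, a log2 difference of -0.43 ± 0.13 (adjusted p = 0.0285), and it was highest in S9-SCA-1+ cells (63.2 and 58.2 CPM). Chpf2 was at 24.1, 23.7 and 23.1 CPM in S9-JAG1+, 32.2, 28.1 and 29.9 in S9-Pαhi, 33.3, 41.8 and 38.8 in OCP, 38.8, 44.6 and 39.1 in chondroblast and 27.5 and 24.6 in S9-SCA-1+ libraries, and passed as higher in S9-Pαhi against S9-JAG1+ cells (0.35 ± 0.10, adjusted p = 0.0233) and in OCPs against S9-Pαhi cells (0.34 ± 0.10, adjusted p = 0.0386). However, 44.1% of the 5588 exon bases of Chpf2 in GENCODE vM21 overlap Smarcd3 on the opposite strand. The study counted reads on RefSeq exons (3717 bases for Chpf2), for which the overlap was not computed. Whether the counting used strand is not stated, and Smarcd3 moved likewise, from 23.2 ± 1.179 CPM in S9-JAG1+ cells to 56.7 ± 1.41 CPM in chondroblasts. The share of Chpf2 reads that could belong to Smarcd3 is therefore unknown.

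Sulfation sets the kind of chondroitin. Chst11 and Chst12 place sulfate at the 4-O position, the pattern of embryonic cartilage, Chst3 and Chst7 at the 6-O position, Chst15 adds a second sulfate to 4-sulfated units, Ust sulfates uronic acid at 2-O, and Dse, Dsel and Chst14 make and sulfate dermatan. Chst11 was higher in each population in the order S9-JAG1+, S9-Pαhi, OCP and chondroblast, of which only the last is from a later embryonic day. It was measured at 7.49, 8.34 and 7.10 CPM in the S9-JAG1+ libraries, 15.6, 11.51 and 11.3 in the S9-Pαhi libraries, 17.5, 22.9 and 28.2 in the OCP libraries, 42.4, 56.7 and 70.5 in the chondroblast libraries and 17.5 and 18.8 in the S9-SCA-1+ libraries. The S9-JAG1+, S9-Pαhi, OCP and chondroblast libraries followed each other without overlap, and S9-SCA-1+ cells overlapped the OCPs. The log2 differences were 0.75 ± 0.21 for S9-Pαhi against S9-JAG1+ (adjusted p = 0.0189), 0.83 ± 0.20 for OCPs against S9-Pαhi (adjusted p = 0.0132) and 1.30 ± 0.19 for chondroblasts against OCPs (adjusted p = 2.67e-04). The last was 1.09 without chondroblast replicate 3 and 1.14 without OCP replicate 1, under the limit of 1.2 for a call. Chst12, the other 4-O enzyme, was flat by comparison (0.26 ± 0.16, adjusted p = 0.255), and was higher only in S9-SCA-1+ cells among the 4 comparisons, by 0.80 ± 0.14 (adjusted p = 3.75e-04).

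The 6-O enzymes parted between chondroblasts and S9-SCA-1+ cells. Chst3 was at 12.3, 14.6 and 15.7 CPM in the S9-JAG1+ libraries, 16.2, 12.1 and 12.5 in the S9-Pαhi libraries, 12.7, 13.0 and 16.8 in the OCP libraries, 26.9, 31.1 and 32.7 in the chondroblast libraries and 10.4 and 8.76 in the S9-SCA-1+ libraries. Chondroblasts lay above and S9-SCA-1+ cells below all other libraries, with log2 differences of 1.09 ± 0.15 for chondroblasts against OCPs (adjusted p = 1.46e-04) and -0.83 ± 0.15 for S9-SCA-1+ cells (adjusted p = 6.14e-04). Chst7 was highest where Chst3 was lowest. It was at 1.63, 1.93 and 3.05 CPM in the S9-JAG1+ libraries, 1.38, 1.02 and 1.10 in the S9-Pαhi libraries, 1.01, 0.523 and 1.01 in the OCP libraries, 0.807, 1.10 and 0.825 in the chondroblast libraries and 8.85 and 8.90 in the S9-SCA-1+ libraries. Both S9-SCA-1+ libraries were above every other library, with a log2 difference of 2.89 ± 0.20, or 7.42-fold (adjusted p = 7.18e-08), and no difference passed between chondroblasts and OCPs (0.08 ± 0.31, adjusted p = 0.873).

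Chst15 was at 16.2, 16.7 and 18.6 CPM in the S9-JAG1+ libraries, 19.7, 18.4 and 23.1 in the S9-Pαhi libraries, 17.6, 17.2 and 18.0 in the OCP libraries, 28.0, 33.1 and 37.5 in the chondroblast libraries and 8.29 and 6.48 in the S9-SCA-1+ libraries. It was highest in chondroblasts (0.90 ± 0.13 against OCPs, adjusted p = 1.93e-04) and was called lower in S9-SCA-1+ cells by -1.52 ± 0.14 (adjusted p = 9.51e-07). In GENCODE vM21, 17.9% of its exon bases overlap the antisense gene Gm10584, which had at most 1.70 ± 0.470 CPM in the population means. For the RefSeq exons on which reads were counted the overlap was not computed. Ust, the uronic acid enzyme, was high at both ends, with 15.7, 15.1 and 18.0 CPM in S9-JAG1+ cells and 15.6, 16.6 and 18.5 CPM in chondroblasts, and no S9-Pαhi or OCP library overlapped these (9.92, 8.84 and 9.91 and 8.56, 9.37 and 9.95 CPM). The dermatan epimerases were lowest in S9-JAG1+ and S9-SCA-1+ cells: Dse rose by 0.68 ± 0.09 (adjusted p = 1.20e-04) and Dsel by 0.96 ± 0.16 (adjusted p = 5.33e-04) in S9-Pαhi against S9-JAG1+ cells on the log2 scale, and their differences between chondroblasts and OCPs did not pass (0.05 ± 0.09 and -0.10 ± 0.15). Chst14 spanned 25.7 to 40.9 CPM, a narrow range, yet it passed as higher in chondroblasts than in OCPs. Its chondroblast libraries, at 37.7, 40.9 and 37.7 CPM against 31.4, 25.7 and 32.1 in OCPs, lay above all other libraries.

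The promoters of Chst11 and Chst3, the 4-O and the 6-O enzyme that rose together in chondroblasts, are shown as the 250 bases before the start site in RefSeq (GRCm38.p6), 5′ to 3′ on the gene's strand. Capitals mark the letters ACAAAG or AACAAT on either strand, which SOX factors are known to bind.
Chst11 (chr10:82985247-82985496, plus strand): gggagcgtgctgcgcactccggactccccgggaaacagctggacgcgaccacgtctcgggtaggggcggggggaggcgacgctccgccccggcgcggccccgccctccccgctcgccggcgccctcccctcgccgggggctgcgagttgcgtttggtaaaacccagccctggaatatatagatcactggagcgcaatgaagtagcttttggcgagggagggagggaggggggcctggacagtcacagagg
Chst3 (chr10:60219261-60219510, minus strand): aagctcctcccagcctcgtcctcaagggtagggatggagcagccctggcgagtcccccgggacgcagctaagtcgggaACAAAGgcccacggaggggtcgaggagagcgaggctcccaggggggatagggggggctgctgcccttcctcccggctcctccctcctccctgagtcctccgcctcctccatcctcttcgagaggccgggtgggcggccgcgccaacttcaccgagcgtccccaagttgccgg
The Chst11 window was 70.0% G and C with 26 CG pairs and had no match. The Chst3 window was 69.6% G and C with 18 CG pairs and had 1 match, 172 bases before the start.

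Heparan chains are polymerised by the Ext1 and Ext2 complex, and Extl1, Extl2 and Extl3 are related glycosyltransferases. Ext1 was lowest in S9-SCA-1+ cells, at 73.5 and 76.7 CPM, where it was lower by -0.65 ± 0.09 (adjusted p = 4.44e-05), and higher in chondroblasts than in OCPs by 0.38 ± 0.09 (adjusted p = 0.00679). Extl1 was the called member of this group. Its levels were 0.642, 0.168 and 0.317 CPM in the S9-JAG1+ libraries, 0.407, 0.564 and 0.448 in the S9-Pαhi libraries, 0.446, 0.856 and 1.12 in the OCP libraries, 5.45, 8.66 and 5.97 in the chondroblast libraries and 1.36 and 0.819 in the S9-SCA-1+ libraries. All chondroblast libraries lay above all others, and the log2 difference from OCPs was 3.04 ± 0.37, or 8.20-fold (adjusted p = 6.12e-05). Extl3 was highest in S9-JAG1+ cells, at 208, 191 and 218 CPM. Its OCP libraries (155, 106 and 150 CPM) and chondroblast libraries (144, 155 and 161 CPM) overlapped. None of the steps between neighbouring populations passed the test, while Extl3 was lower in S9-SCA-1+ cells by -0.45 ± 0.11 (adjusted p = 0.00635). Ext2 spanned 58.1 to 85.9 CPM, and its S9-JAG1+ libraries (62.4, 58.1 and 62.3 CPM) lay below all other libraries. Extl2 spanned 14.7 to 28.5 CPM.

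Heparan sulfation starts with the N-deacetylase/N-sulfotransferases Ndst1 to Ndst3, followed by the epimerase Glce and the 2-O enzyme Hs2st1. Ndst1 and Hs2st1 were steady, at 163 to 240.1 CPM and 71.7 to 109 CPM over the 14 libraries. Glce and Ndst2 were higher in chondroblasts than in OCPs by 0.38 ± 0.10 (adjusted p = 0.0157) and 0.22 ± 0.09 (adjusted p = 0.0752). Ndst3 had few reads: 6, 2 and 1 in S9-JAG1+, 11, 13 and 5 in S9-Pαhi, 9, 9 and 11 in OCP, 14, 31 and 18 in chondroblast and 2 and 2 in S9-SCA-1+ libraries. The S9-JAG1+ and S9-Pαhi libraries overlapped, and the ratio of CPM from their summed reads, S9-Pαhi over S9-JAG1+, was 3.28 (95% interval 1.51 to 7.87), for counting error alone. Its call between them (adjusted p = 0.0555) was lost when S9-JAG1+ replicate 2 or 3 or S9-Pαhi replicate 1 or 2 was left out (0.140 to 0.193). In S9-SCA-1+ cells, where each library was under the floor, the fitted difference was -2.23 ± 0.64 (adjusted p = 0.0133), and this call was lost with only 1 of these libraries.

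The 3-O-sulfotransferases add the rarest heparan modification and so create specific ligand sites. Among the members, Hs3st1 was called higher in S9-Pαhi against S9-JAG1+ cells (4.42% of all genes). Hs3st3a1 and Hs3st3b1, whose reads are partly ambiguous, were called higher in OCPs against S9-Pαhi cells (3.48% of all genes). Outside the members the family was mixed in these comparisons, with Hs3st5 called higher, Hs3st6 lower and Hs3st4 in both directions, as given further below. Hs3st1 was at 0.257, 0.293 and 0.119 CPM in the S9-JAG1+ libraries, 1.95, 1.504 and 1.196 in the S9-Pαhi libraries, 2.68, 3.04 and 4.01 in the OCP libraries, 8.14, 6.78 and 3.81 in the chondroblast libraries and 0.280 and 0.178 in the S9-SCA-1+ libraries. S9-JAG1+ and S9-SCA-1+ cells overlapped at the bottom and lay below all S9-Pαhi libraries, which lay below the OCPs, and the OCP and chondroblast libraries overlapped. Reads were few at the bottom, with 6, 7 and 3 in S9-JAG1+ and 8 and 5 in S9-SCA-1+ libraries. The ratio of CPM from summed reads, S9-Pαhi over S9-JAG1+, was 7.12 (95% interval 4.20 to 12.9) for counting error alone, and the fitted log2 difference was 2.79 ± 0.42 in S9-Pαhi against S9-JAG1+ cells (adjusted p = 2.85e-04) and 1.06 ± 0.31 in OCPs against S9-Pαhi cells (adjusted p = 0.0386). In S9-SCA-1+ cells Hs3st1 was lower by -2.81 ± 0.44 (adjusted p = 1.66e-04), or by -2.16 against the E10.5 populations alone.

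Hs3st3a1 and Hs3st3b1 were high in the Sox9+ and in the S9-SCA-1+ cells and low in both other Sox9-negative populations. Hs3st3b1 was at 29.9, 20.3 and 16.6 CPM in the S9-JAG1+ libraries, 35.1, 31.0 and 23.1 in the S9-Pαhi libraries, 120.5, 101 and 147 in the OCP libraries, 209, 214 and 235 in the chondroblast libraries and 129.7 and 125 in the S9-SCA-1+ libraries. Hs3st3a1 was at 9.63, 5.32 and 4.56 CPM in the S9-JAG1+ libraries, 11.3, 9.21 and 5.93 in the S9-Pαhi libraries, 22.6, 31.3 and 40.6 in the OCP libraries, 61.4, 67.7 and 78.7 in the chondroblast libraries and 32.6 and 29.6 in the S9-SCA-1+ libraries. For both genes S9-JAG1+ and S9-Pαhi libraries overlapped and lay below all OCP, S9-SCA-1+ and chondroblast libraries, with chondroblasts on top and S9-SCA-1+ cells overlapping the OCPs. In OCPs against S9-Pαhi cells the log2 difference was 2.05 ± 0.20 for Hs3st3b1, or 4.13-fold (adjusted p = 1.59e-05), and 1.83 ± 0.28 for Hs3st3a1, or 3.55-fold (adjusted p = 5.64e-04). In chondroblasts against OCPs it was 0.84 ± 0.19 (adjusted p = 0.00542) and 1.14 ± 0.26 (adjusted p = 0.00552). Hs3st3b1 was the more abundant per kilobase, at 36.6 against 17.6 CPM per kb in chondroblasts.

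The reads of this pair are partly ambiguous. The genes lie on chromosome 11 on opposite strands, and their GENCODE vM21 transcripts (GRCm38) share an identical coding stretch of 401 bases, preceded by one of 88 bases and followed by one of 74. The stretch of 88 bases is shown because a read of 50 bases inside it maps equally to both genes, and the aligner reported a single hit for such reads.
Hs3st3a1 (chr11:64520221-64520308, plus strand) and Hs3st3b1 (chr11:63889635-63889722, minus strand): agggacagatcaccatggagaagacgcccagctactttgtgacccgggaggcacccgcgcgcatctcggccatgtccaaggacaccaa
Of all 50-base windows, 10.7% in Hs3st3a1 and 8.56% in Hs3st3b1 recur in the other gene. In addition, 32.9% of the GENCODE exon bases of Hs3st3a1 overlap F930015N05Rik on the opposite strand. That gene was itself at 5.51 ± 0.946 CPM in S9-Pαhi cells, 17.4 ± 2.17 in OCPs and 33.9 ± 4.68 in chondroblasts (SD, n = 3). The value of Hs3st3a1 is therefore the less certain of the pair. The windows before the start sites of both genes follow, since the pair moved together.
Hs3st3a1 promoter (chr11:64435082-64435331, plus strand): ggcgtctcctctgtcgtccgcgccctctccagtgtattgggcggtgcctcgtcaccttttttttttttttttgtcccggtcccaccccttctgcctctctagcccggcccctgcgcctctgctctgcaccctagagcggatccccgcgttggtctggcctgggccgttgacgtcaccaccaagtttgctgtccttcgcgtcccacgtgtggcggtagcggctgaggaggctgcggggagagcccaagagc
Hs3st3b1 promoter (chr11:63922285-63922534, minus strand): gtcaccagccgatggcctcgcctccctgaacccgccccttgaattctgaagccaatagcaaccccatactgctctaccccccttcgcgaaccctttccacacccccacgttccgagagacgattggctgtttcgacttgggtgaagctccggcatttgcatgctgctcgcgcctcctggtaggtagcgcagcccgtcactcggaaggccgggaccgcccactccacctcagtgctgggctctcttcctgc
They were 64.0% and 62.4% G and C with 20 and 17 CG pairs, and neither held the SOX letters.

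The 6-O-sulfotransferases of heparan sulfate differed in their order. Hs6st1 had 33.7, 36.1 and 37.9 CPM in S9-JAG1+, 47.3, 41.4 and 39.8 in S9-Pαhi, 49.8, 48.4 and 55.9 in OCP, 74.0, 71.9 and 65.1 in chondroblast and 46.7 and 38.9 in S9-SCA-1+ libraries, and its step into chondroblasts was 0.45 ± 0.10 on the log2 scale (adjusted p = 0.00427). Hs6st2 was lowest in S9-JAG1+ cells, at 39.8, 31.6 and 29.6 CPM, and higher in S9-Pαhi cells by 0.83 ± 0.12 (adjusted p = 2.37e-04). It was lower in OCPs than in S9-Pαhi cells by -0.51 ± 0.12 (adjusted p = 0.0143), and was higher again in chondroblasts by 0.52 ± 0.12 (adjusted p = 0.00706). Hs6st3 was read above the low counts only in S9-SCA-1+ cells, with 55 and 40 reads, against 0, 4 and 4 in S9-JAG1+, 4, 1 and 3 in S9-Pαhi, 2, 0 and 1 in OCP and 5, 6 and 7 in chondroblast libraries. The fitted difference in S9-SCA-1+ cells was 3.96 ± 0.42 (adjusted p = 4.47e-06). The call in chondroblasts against OCPs rests on 18 against 3 reads, a ratio of 5.21 (95% interval 1.52 to 27.6) for counting error (adjusted p = 0.0656), and was lost at a limit of 0.05 and without OCP replicate 2 or 3 or chondroblast replicate 2 or 3 (adjusted p from 0.124 to 0.155).

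**Figure D4:**
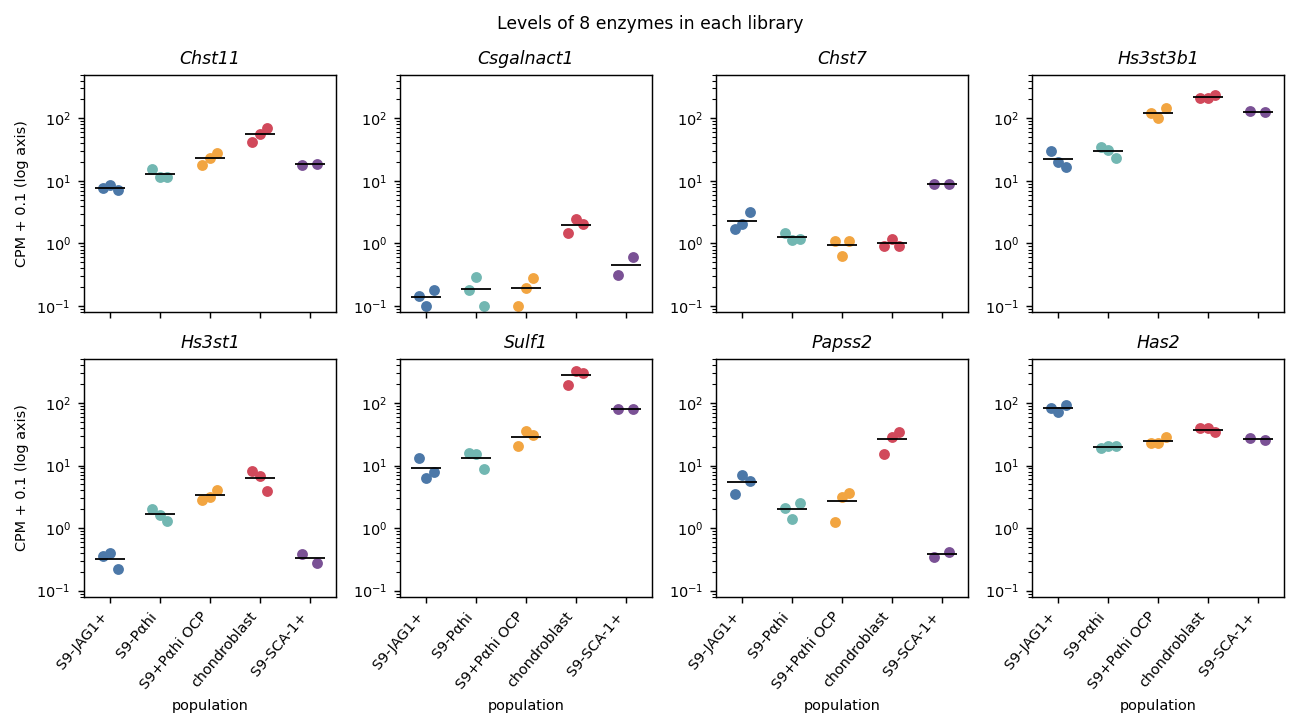
CPM plus 0.1 on a log axis for 8 members in each library, with the mean of each population as a bar. Sulf1, Papss2 and Csgalnact1 are highest in chondroblasts, and Chst11 and Hs3st3b1 are also higher in OCPs than in S9-Pαhi cells. Chst7 is high in S9-SCA-1+ cells and Has2 in S9-JAG1+ cells.

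After secretion, the endosulfatases Sulf1 and Sulf2 remove 6-O-sulfates from heparan chains and so tune growth factor binding. Sulf1 was called higher in both chondroblasts and S9-SCA-1+ cells. It was at 13.3, 6.29 and 7.69 CPM in the S9-JAG1+ libraries, 15.9, 15.2 and 8.72 in the S9-Pαhi libraries, 20.4, 35.1 and 30.7 in the OCP libraries, 196, 323 and 304 in the chondroblast libraries and 81.0 and 78.6 in the S9-SCA-1+ libraries. S9-JAG1+ and S9-Pαhi libraries overlapped, and OCPs, S9-SCA-1+ cells and chondroblasts followed without overlap. In chondroblasts Sulf1 was 9.57-fold above OCPs, a log2 difference of 3.26 ± 0.29 (adjusted p = 5.08e-06). It was also higher in OCPs than in S9-Pαhi cells by 1.10 ± 0.29 (adjusted p = 0.0226) and in S9-SCA-1+ cells by 1.35 ± 0.23 (adjusted p = 3.66e-04), or by 2.40 against the E10.5 populations alone. Sulf2 was lowest in chondroblasts (614, 623 and 617 CPM) and highest in S9-SCA-1+ cells (1178 and 1059 CPM), with 0.72 ± 0.07 for the latter (adjusted p = 1.56e-06). The step from OCPs to chondroblasts of -0.18 ± 0.08 did not pass (adjusted p = 0.103).

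Papss2, of the sulfate supply, had the widest range of the 47 tested members, with a mean 92.8 times as high in chondroblasts as in S9-SCA-1+ cells. Papss1 and Papss2 make PAPS, Slc26a2 imports sulfate, Slc35d1 carries nucleotide sugars into the endoplasmic reticulum, and Ugdh makes the glucuronic acid donor. Papss2, the gene mutated in brachymorphic mice, was at 3.43, 6.87 and 5.59 CPM in the S9-JAG1+ libraries, 1.99, 1.32 and 2.39 in the S9-Pαhi libraries, 1.14, 3.09 and 3.51 in the OCP libraries, 15.03, 28.9 and 34.8 in the chondroblast libraries and 0.245 and 0.321 in the S9-SCA-1+ libraries. Chondroblasts lay above all other libraries and S9-SCA-1+ cells below them, and the S9-Pαhi and OCP libraries overlapped. The log2 difference was 3.34 ± 0.39 in chondroblasts against OCPs, or 10.1-fold (adjusted p = 4.34e-05), -1.49 ± 0.41 in S9-Pαhi against S9-JAG1+ cells (adjusted p = 0.0182) and -4.15 ± 0.58 in S9-SCA-1+ cells (adjusted p = 6.37e-05). The last was -3.36 against the E10.5 populations alone, and the S9-SCA-1+ libraries had 7 and 9 reads.

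Papss1 was the main PAPS synthase by level in every library. It was higher by 0.43 ± 0.08 in OCPs against S9-Pαhi cells (adjusted p = 0.00409), with no further step to chondroblasts that passed (0.08 ± 0.08, adjusted p = 0.507). Ugdh was at 129, 144 and 164 CPM in chondroblasts against 92.4, 84.6 and 102 CPM in OCPs, without overlap, a log2 difference of 0.64 ± 0.11 (adjusted p = 7.14e-04). Slc26a2, the diastrophic dysplasia sulfate transporter, rose by 0.38 ± 0.12 in the same comparison (adjusted p = 0.0308), and Slc35d1 spanned 10.1 to 14.8 CPM.

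Papss2 has a pair of start sites in RefSeq, and the 250 bases before each are shown because this gene had the widest range, with the SOX letters in capitals.
Papss2 first start (chr19:32595465-32595714, plus strand): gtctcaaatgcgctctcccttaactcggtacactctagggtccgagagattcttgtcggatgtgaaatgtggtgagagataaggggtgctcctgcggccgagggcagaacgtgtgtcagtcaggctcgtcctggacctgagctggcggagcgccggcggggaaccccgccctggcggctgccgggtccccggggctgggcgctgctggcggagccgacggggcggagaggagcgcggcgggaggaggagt
Papss2 second start (chr19:32619755-32620004, plus strand): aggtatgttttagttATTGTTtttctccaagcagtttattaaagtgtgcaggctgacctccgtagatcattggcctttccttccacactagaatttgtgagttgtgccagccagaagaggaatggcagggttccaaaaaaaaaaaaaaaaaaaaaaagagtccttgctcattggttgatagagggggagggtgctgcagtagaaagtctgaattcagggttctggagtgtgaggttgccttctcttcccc
The first window was 67.6% G and C with 24 CG pairs and no match, and the second 43.2% with 1 CG pair and 1 match, ATTGTT, which is AACAAT on the other strand, 235 bases before the start. Of the members, 38 had an entry in the promoter table, with 47 windows. AACAAT or ACAAAG occurred in 3 of these 47 windows (6.38%), those of Chst3, Extl2 and the second start of Papss2, and in 24.04% of all 32851 windows of the same length. Alone, AACAAT occurred in 9.42% and ACAAAG in 16.5% of all windows, and matches of either may overlap each other. A match is a description of letters and not a binding site.

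The main hyaluronan synthase was highest in S9-JAG1+ cells. Has2, which makes most hyaluronan of the embryo, was at 81.5, 71.6 and 91.5 CPM in the S9-JAG1+ libraries, 18.8, 20.2 and 20.7 in the S9-Pαhi libraries, 23.1, 23.1 and 28.2 in the OCP libraries, 39.5, 39.0 and 33.7 in the chondroblast libraries and 27.0 and 25.002 in the S9-SCA-1+ libraries. The S9-JAG1+ libraries lay above all others and the S9-Pαhi libraries below them, with chondroblasts second. The log2 difference of S9-Pαhi against S9-JAG1+ cells was -2.04 ± 0.11, or 4.10-fold lower (adjusted p = 3.52e-08). Chondroblasts exceeded OCPs by 0.59 ± 0.11 (adjusted p = 0.00158). Has3 was lower in level and called in chondroblasts, where it had 2.99, 4.31 and 3.81 CPM against 1.14, 1.47 and 0.977 CPM in OCPs, without overlap with any other library, a log2 difference of 1.64 ± 0.26 (adjusted p = 4.40e-04). Has1 ranged from 0.199 to 2.62 CPM with overlapping populations.

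Pairs of genes that serve the same step differed in balance, given as the log2 ratio of CPM per kb within a library after adding 0.1 CPM. Sulf1 over Sulf2 ran from -6.47 ± 0.59 in S9-JAG1+ cells to -1.44 ± 0.38 in chondroblasts (SD, n = 3), so Sulf2 remained the more abundant even there. Chst3 over Chst7 was 3.44 ± 0.22 in chondroblasts (SD, n = 3) and -1.38 ± 0.17 in S9-SCA-1+ cells (SD, n = 2), the only population in which Chst7 led. Chst11 over Chst12 passed from -2.27 ± 0.16 in S9-JAG1+ cells through -0.46 ± 0.52 in OCPs to 0.56 ± 0.29 in chondroblasts (SD, n = 3), where Chst11 led in all 3 libraries and nowhere else.

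Chpf over Chpf2 moved the opposite way, from 1.05 ± 0.17 in S9-JAG1+ cells and 1.42 ± 0.03 in S9-SCA-1+ cells to -0.15 ± 0.13 in chondroblasts, subject to the overlap of Chpf2 with Smarcd3. Papss1 over Papss2 was 3.11 ± 0.66 in chondroblasts and 8.53 ± 0.20 in S9-SCA-1+ cells. Has2 over Has3 was 5.83 ± 0.14 in S9-JAG1+ cells and 3.79 ± 0.32 in chondroblasts. Ext1 over Ext2, which work as one complex, stayed between -0.26 ± 0.07 in S9-SCA-1+ and 0.74 ± 0.14 in S9-JAG1+ cells, and Dse over Dsel and Ndst1 over Ndst2 moved by less than 1 on the log2 scale. These ratios carry no test.

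**Figure D5:**
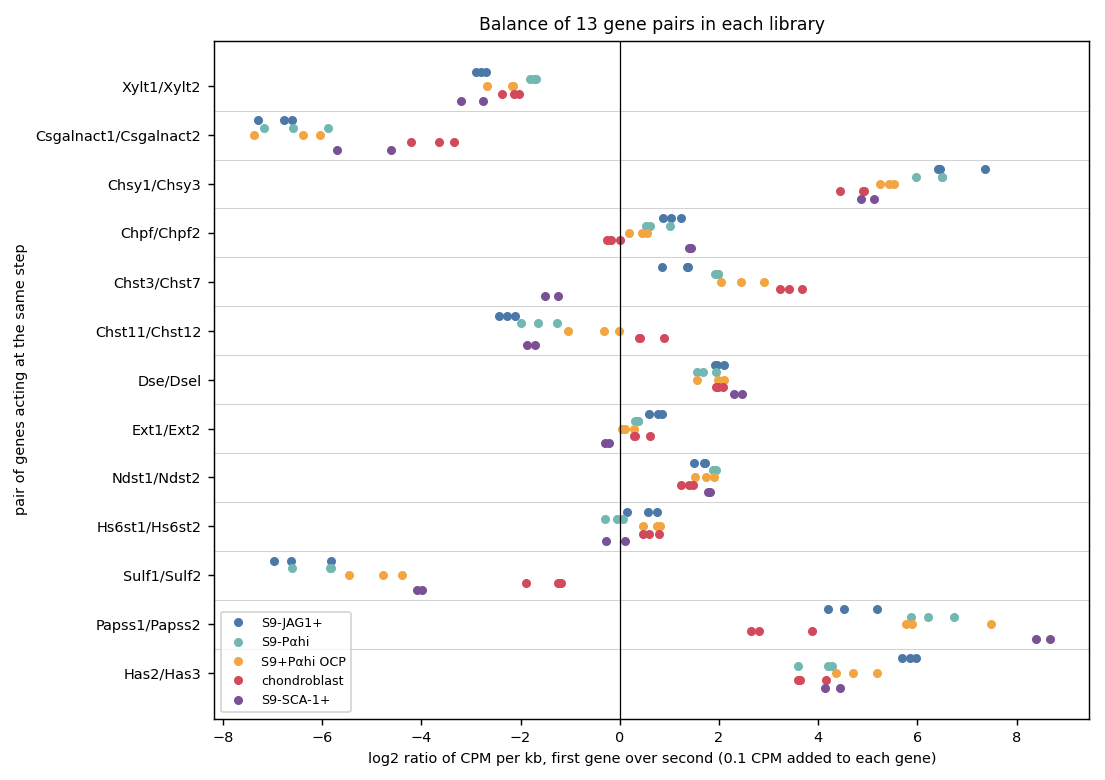
Log2 ratio of CPM per kb for 13 pairs of genes that act at the same step or in the same complex, 1 point per library. Sulf1/Sulf2, Papss1/Papss2 and Chst3/Chst7 spread by about 5 log2 units between populations, while Dse/Dsel and Ndst1/Ndst2 spread by less than 1.

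Other genes of the pathway, from lists drawn by function, gave a background for the members, and the shares of all genes in the 4 comparisons given above for the members apply to these counts as well. Log2 differences with their standard errors stand in parentheses, and every gene called is named. Of 7 tested chondroitin core proteins, 5 were higher and none lower in chondroblasts (18.3% and 16.5% of all genes), with aggrecan, Acan (6.22 ± 0.68), decorin, Dcn (3.20 ± 0.45), and biglycan, Bgn (1.59 ± 0.15), called. In OCPs against S9-Pαhi cells 3 were higher and 1 lower (11.8% and 8.35% of all genes), with versican, Vcan (1.81 ± 0.24), and Cspg4 (1.36 ± 0.21) called higher and Bgn (-1.33 ± 0.15) called lower. Vcan, the main chondroitin core protein here, was at 333, 482 and 354 CPM in S9-Pαhi and 787, 1969.8 and 1331 CPM in OCP libraries. In S9-Pαhi against S9-JAG1+ cells 2 were higher, 1 was lower and no core protein was called. In S9-SCA-1+ cells all 7 were lower than the average of the other 4 populations (22.8% of all genes), with Acan (-1.93 ± 0.80), Bgn (-1.60 ± 0.15) and Dcn (-3.02 ± 0.64) called. That average includes the E11.5 chondroblasts, where the same 3 genes were called higher than in OCPs. Their differences from the E10.5 populations alone are not given here, so a deficit against cells of the same day is not shown.

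Of 13 heparan core proteins, 4 were higher and 4 lower in chondroblasts (18.3% and 16.5% of all genes), with the glypicans Gpc4 (1.34 ± 0.14) and Gpc5 (-2.00 ± 0.19) called. In OCPs against S9-Pαhi cells 3 were higher and 4 lower with no call, and in S9-Pαhi against S9-JAG1+ cells 7 were higher and 2 lower (15.2% and 12.8% of all genes), with Gpc4 (2.11 ± 0.16) called. The most calls of this list were in S9-SCA-1+ cells, where 4 were higher and 6 lower (23.5% and 22.8% of all genes). The syndecan Sdc4 (1.43 ± 0.13) and Col18a1 (1.41 ± 0.08) were called higher there, and Sdc2 (-1.52 ± 0.09), Gpc3 (-1.30 ± 0.11), Gpc4 (-1.44 ± 0.16) and Gpc5 (-1.47 ± 0.20) called lower.

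Of 7 keratan sulfate enzymes, 5 were higher in chondroblasts (18.3% of all genes) with no call. In this list Chst5 (1.70 ± 0.54) was called higher in OCPs against S9-Pαhi cells, Chst1 (1.58 ± 0.21) higher and B3gnt7 (-1.24 ± 0.34) lower in S9-Pαhi against S9-JAG1+ cells, and Chst2 (1.64 ± 0.08) higher in S9-SCA-1+ cells. Among 21 breakdown enzymes 8 were higher and 2 lower in chondroblasts (18.3% and 16.5% of all genes). Hpse2, the heparanase relative that lacks the enzyme's activity, was called higher there (2.20 ± 0.19) and lower in S9-SCA-1+ cells (-2.86 ± 0.24), and Cemip (2.37 ± 0.96) was called in chondroblasts at population means below 1 CPM. Heparanase itself was called in S9-Pαhi against S9-JAG1+ cells, Hpse (2.69 ± 0.23). Of 14 precursor and transport genes, 4 were higher and 3 lower in chondroblasts and none was called in any of the 4 comparisons. Of the 2 tested hyaluronan receptors, Cd44 (1.41 ± 0.28) was called higher in chondroblasts.

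Of 5 tested further sulfotransferases and related enzymes, 3 were called higher in chondroblasts against OCPs, the 3-O enzymes Hs3st4 (1.61 ± 0.49) and Hs3st5 (2.51 ± 0.57) and the N-sulfotransferase Ndst4 (3.04 ± 0.68), all at population means below 2 CPM. Hs3st5 was also called higher in OCPs, at 0.245 ± 0.159 CPM with no read in any S9-Pαhi library, so no fold is given. Hs3st4 was called lower in OCPs against S9-Pαhi cells (-1.90 ± 0.49). It was also called higher in S9-Pαhi against S9-JAG1+ cells and lower in S9-SCA-1+ cells, and its mean was under the floor in both S9-JAG1+ and S9-SCA-1+ cells. Another 3-O enzyme, Hs3st6, was called lower in S9-Pαhi against S9-JAG1+ cells (-1.82 ± 0.24) and in S9-SCA-1+ cells (-2.70 ± 0.30).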

How the data were processed

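RNA of sorted cells was made into poly(A) libraries and sequenced as single reads. The authors aligned reads with STAR to mm10, which kept a single hit for reads that map to several places, and counted reads per gene with QuasR; the deposited values are raw counts per gene with no normalization, and strand use is not given in the sources used here. Entrez identifiers were matched to RefSeq symbols (GRCm38.p6) for 24374 of 24454 genes, and the other 80 held 0.358% of counts. Counts were tested with edgeR 4.0.16 (R 4.3.3; filterByExpr, TMM, quasi-likelihood F test, Benjamini-Hochberg adjustment over 15125 genes) in 1 model of the 5 populations over 14 libraries, with no replicate block. A gene passed at an adjusted p of 0.1 and was called with a log2 fold change of at least 1.2 as well. The study used the same limits, but its methods do not say that its p-values were adjusted. CPM use TMM-scaled totals, and the branch index uses log2 CPM with a prior count of 2. Branch values, pair ratios and promoter letters have no test. Intervals are exact binomial at 95% and, like the floor of 3 counts, cover counting error only.

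Replicates are sort pools named by number, and p-values measure the spread between these pools, which differed well beyond sampling noise (chi-square per degree of freedom 7.57 to 75.0). The deviations of same-numbered libraries had a median r of -0.00476 over 26 pairs, with a range of -0.18 to 0.31. These pairs include the chondroblasts, from another embryonic day, so the median does not describe the E10.5 libraries alone. Pairs of unlike number had a median r of -0.00297. Deviations cancel within a population, so values of mixed sign are built in. The median can therefore not show whether libraries of equal number share a batch. The test was checked on simulated counts. Members and lists were chosen with earlier results of these data known. Genes named with values in every library are those called in a comparison or with the largest change of their role; other pathway genes were to be those called, at most the 6 largest each, and the further ones were added so that every call is shown; Chsy1, Chpf, Xylt1 and other members were named to cover the roles. Alternatives were DESeq2 1.42.0, other scalings and filters, a replicate block, leaving out each library, and other ways of summarising the branches and pairs.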

Additional observations from a re-analysis of the deposited data

How the results depend on the processing

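The counts of members that passed or were called stayed within 1.5 times their main value with DESeq2, with other scalings and filters, with a limit of 0.05 and with the compared libraries alone. With the replicate number as a block, 27 members passed in chondroblasts against OCPs and 12 in OCPs against S9-Pαhi cells. Under the same block 16 passed in S9-Pαhi against S9-JAG1+ cells, 29 in S9-SCA-1+ cells and 40 in the joint test, so the block moved no count by over 1.5 times. The shares of all genes under the block are not given, so these counts are set against their main values alone. The pairs of same-numbered libraries had r from -0.18 to 0.31, with 4 of 26 above 0.1, and 5 of 14 libraries correlated best with their own number. When each library was left out in turn, OCPs against S9-Pαhi cells had 2 to 4 members called (4 without S9-Pαhi replicate 1) and 7 to 19 past the adjusted p (7 without S9-Pαhi replicate 3, 8 without OCP replicate 3, 19 without OCP replicate 1, beside 10.3%, 14.8% and 36.7% of all genes), and S9-SCA-1+ cells had 18 to 32 past it (18 without replicate 3, beside 27.1% of all genes). A lone S9-SCA-1+ library is then assumed to vary like the others. Single genes were followed under the alternatives only where a member was called in the main fit. Of these values, 419 kept their direction and their call and 14, all for Chst11, Hs6st3 and Ndst3, lost the call with the same direction. A setting whose filter removed the gene gave no value. Hs6st3 in chondroblasts and Ndst3 in S9-Pαhi against S9-JAG1+ cells thus had 20 values in place of 22. Csgalnact1 in chondroblasts, and Hs6st3 and Ndst3 in S9-SCA-1+ cells, had 21.

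The chondroitin minus heparan index was the unstable result. With the median over members it was 0.0709 in S9-JAG1+, -0.13 in S9-Pαhi and 0.13 in chondroblasts. With summed CPM per kb it was -0.0348 in S9-JAG1+, 0.0101 in OCPs and -0.0629 in chondroblasts. With members of at least 5 CPM (12 in each branch) it was 0.0994 in S9-Pαhi, -0.0284 in OCPs, 0.0358 in chondroblasts and -0.20 in S9-SCA-1+ cells. With the sulfatases counted as heparan genes it was 0.0369 in S9-Pαhi and -0.21 in chondroblasts. With chain-building enzymes alone (6 and 5) it was -0.32 in S9-JAG1+, -0.20 in S9-Pαhi, 0.0504 in OCPs, 0.13 in chondroblasts and 0.33 in S9-SCA-1+ cells. Without Hs3st3a1 and Hs3st3b1, a choice made after seeing the data, it was 0.0716, -0.19 and -0.00872 in S9-JAG1+, S9-Pαhi and chondroblasts. With 1 CPM added in place of 0.1, the spread of pair ratios between populations was 0.82 in place of 3.16 for Csgalnact1 and Csgalnact2, 1.53 in place of 2.00 for Chsy1 and Chsy3, 3.94 in place of 4.82 for Chst3 and Chst7 and 3.72 in place of 5.41 for Papss1 and Papss2, since the added amount exceeds the level of the lower gene in some populations. Depth limits Csgalnact1, Ndst3, Hs6st3 and Hs3st1, and S9-SCA-1+ cells have only 2 libraries.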
